A study of Mus musculus with 8 samples.

Results

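The 10 genes described here encode inducible transcription factors: the Fos family (Fos, Fosb, Fosl1, Fosl2), the Jun family (Jun, Junb, Jund), the zinc finger factors Egr1 and Egr2, and Atf3. They were taken by symbol from a table of 35976 genes, in which all 10 were found, and all 10 passed the filter for testing (a mean log2 level above 3). The 8 libraries hold RNA of C2C12, a mouse myoblast line whose cells fuse into myotubes when serum is withdrawn. Cells had received a non-targeting shRNA in 4 libraries (control) and an Atad2 shRNA in the other 4, and were lysed 48 h after transfection. Atad2 encodes a bromodomain ATPase of chromatin. The labels name a single Atad2 shRNA, give no other difference between the groups, and do not say whether replicates were separate cultures. The p-values below therefore cover the spread between libraries, which may be technical.

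Fos and Jun proteins pair through leucine zippers to form AP-1, the dimer that binds the TPA response element; Fos proteins need a Jun partner, whereas Jun proteins can also pair with each other. Most of these genes are silent or low in resting cells and are switched on within minutes by growth factors or stress through MAP kinases and serum response factor, without new protein synthesis. Fosl1 (FRA-1), Fosl2 (FRA-2) and Jund are more lastingly expressed relatives. In myoblasts, AP-1 activity is associated with proliferation, and JUN is known to oppose MyoD.

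Recovered depth was 61.4 to 73.0 Mreads (1e6 reads) with control shRNA and 50.3 to 72.3 Mreads with Atad2 shRNA (exact permutation p = 0.457). Levels are log2(normalized count + 1) with the normalization as deposited, given as mean ± SD over 4 libraries. Changes are log2 fold changes, Atad2 over control shRNA, ± SE. Atad2 itself stood at 14.66, 14.74, 14.67 and 14.61 in the controls and 11.87, 11.77, 12.05 and 12.05 in the Atad2 libraries (-2.73 ± 0.05, limma adjusted p = 4.6e-20). All 10 fixed myoblast markers were measured, with Myod1 at 12.61 ± 0.06 and Des (desmin) at 14.74 ± 0.05 in the controls, and their summed normalized count was 68801 to 72814 in the controls and 77329 to 82944 after knockdown. The markers went both ways, with 6 called higher (Myod1, Des, Myog, Ncam1, Itga7 and Musk) and 4 lower (Myf5, Cdh15, Pax7 and Chrna1). Among these, Myog (myogenin) stood at 4.79 ± 0.26 and then 6.94 ± 0.33, Pax7 at 4.70 ± 0.43 and then 1.44 ± 1.52, and Myf5 at 9.54 ± 0.15 and then 8.26 ± 0.13. Of the markers of other cell types, Adgre1, Tyrobp, Tie1, Emcn, Erg, Epcam, Esrp1, Adipoq, Lep, Retn, Thy1, Lum and Tnmd had no read in any library. Others were expressed. Higher and lower calls numbered 1 and 0 for leukocyte, 0 and 2 for epithelial, 1 and 2 for adipocyte and 3 and 2 for fibroblast markers. Krt14 (epithelial) went from 12.11 ± 0.04 to 10.93 ± 0.11 and Lpl (adipocyte) from 12.49 ± 0.09 to 11.96 ± 0.17. Pdgfra (fibroblast) went from 10.95 ± 0.03 to 12.26 ± 0.03 and Cd68 (leukocyte) from 7.92 ± 0.14 to 9.095 ± 0.15. Summed normalized counts in control and Atad2 libraries were 921 to 985 and 1105 to 1316 for 10 leukocyte markers, 44.5 to 62.4 and 28.3 to 51.2 for 8 endothelial markers, and 4335 to 4600 and 1814 to 2152 for 8 epithelial markers. They were 8049 to 8951 and 7544 to 8296 for 8 adipocyte markers and 65657 to 74464 and 58408 to 77389 for 8 fibroblast markers. The part of these levels in the results below was not tested. Principal component 2, with 8.29% of the variance, separated Atad2 replicate 3 from all others. Without it, 4 members were still called higher and 4 lower, and Jun lost its call. It was the lowest Atad2 library for 4 of 10 members, beside 26.9% of tested genes.

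After Atad2 knockdown the members moved in both directions, as did the tested genes as a whole. Fosl1, Junb, Egr2 and Fosl2 rose, Jund, Fos, Atf3, Egr1 and Jun fell, and Fosb did not pass. That made 9 of 10 members called (limma, adjusted p under 0.05 over all genes tested), where 60.4% of the 14703 tested genes were called. The 4 higher and 5 lower members stand beside 30.8% and 29.6% of tested genes. The groups did not overlap for 5 members (Fosl1, Fosl2, Fos, Junb and Jund), against 53.5% of tested genes. A change of at least 2-fold was called for 2 members, Fosl1 and the weakly expressed Atf3, beside 2.52% of tested genes higher and 8.61% lower by that much. The median log2 fold change of the members was 0.03, and that of all tested genes -0.01. In bulk RNA, fewer cells expressing a gene and less RNA per cell cannot be told apart.

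**Figure D1:**
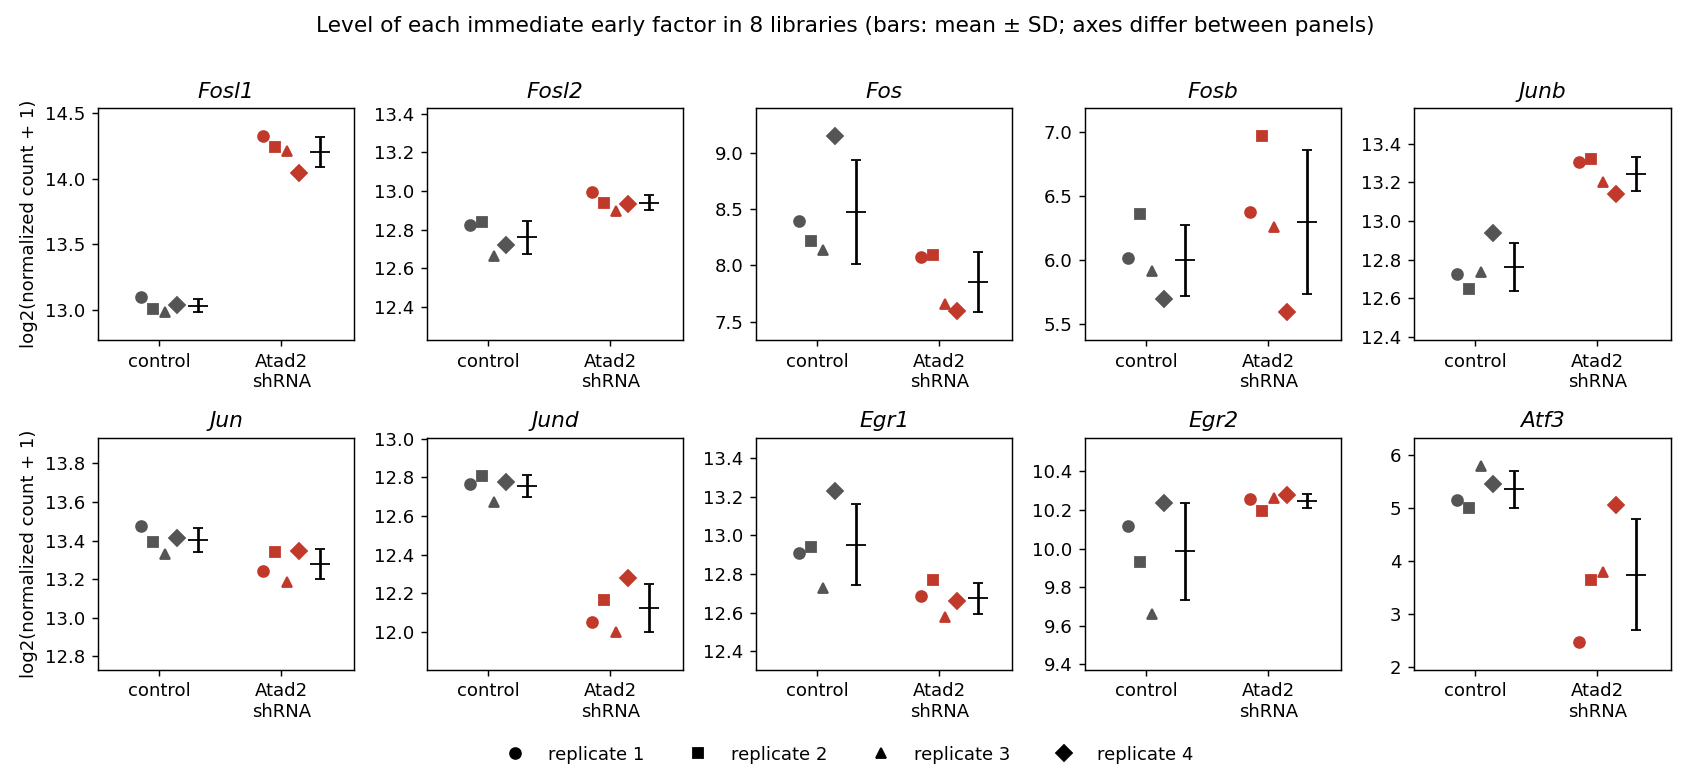
Level of each of the 10 factors, as log2(normalized count + 1) on the vertical axis, in the 4 control libraries (grey) and 4 Atad2 shRNA libraries (red); symbols mark the replicate number and bars the mean ± SD. All 4 Atad2 libraries lie above the controls for Fosl1, Fosl2 and Junb and below them for Jund and Fos, while the other 5 overlap; vertical axes differ between panels.

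**Figure D2:**
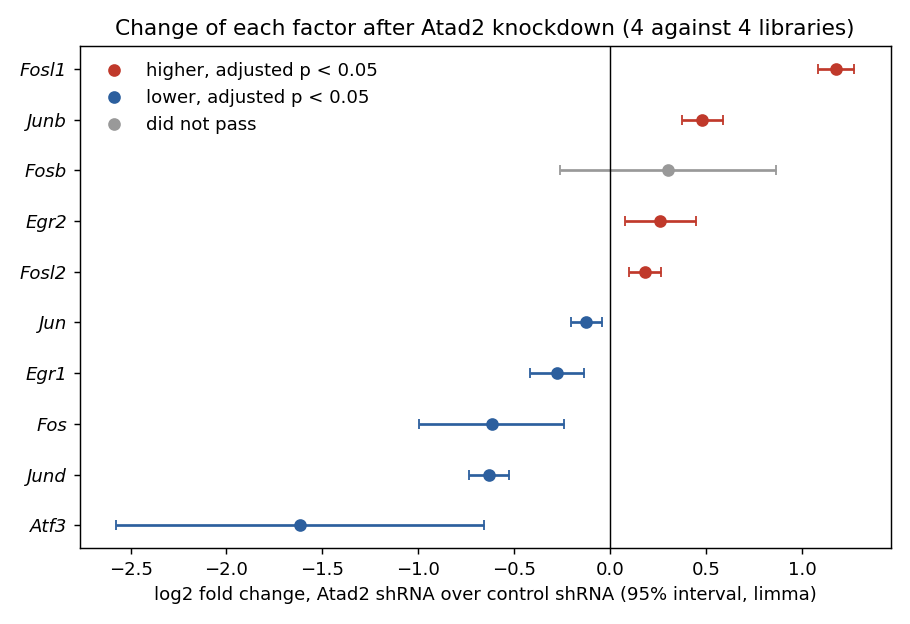
Log2 fold change (horizontal axis, Atad2 over control shRNA) of each factor with its 95% interval from limma, 4 against 4 libraries; red was called higher, blue lower and grey did not pass. Fosl1 lies farthest to the right at 1.18, and Atf3 farthest to the left at -1.62 with the widest interval.

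Fosl1 had the largest rise of the 10. The gene (chromosome 19, 5447698 to 5455938, GRCm38, protein-coding) encodes FRA-1, a Fos protein without the C-terminal activation domain of c-FOS. Its level was 13.10, 13.01, 12.98 and 13.04 in the controls and 14.32, 14.24, 14.21 and 14.04 in the Atad2 libraries. Every Atad2 library lay above every control library by more than the spread within either group. The log2 fold change was 1.18 ± 0.04, a 2.26-fold rise (limma adjusted p = 5.6e-15; exact permutation p = 0.0286, the smallest that 4 against 4 libraries can give). The rise rested on 8183 to 9895 recovered reads in a control library and 14608 to 22453 in an Atad2 library. It was called under each of the 20 alternative settings, with values from 1.07 to 1.23.

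Fosl1 overlaps Ccdc85b on the opposite strand, and the strand setting of the counting is not given in the sources used here. Ccdc85b moved the other way, from 10.42 ± 0.07 to 9.53 ± 0.19 (-0.88 ± 0.08, limma adjusted p = 7.6e-09). The tested genes with the pattern most like Fosl1 over the 8 libraries, after each gene was centred on its own mean, were Nectin1, Gss and Errfi1. Their root mean square differences from Fosl1 were 0.035, 0.047 and 0.047 on the log2 scale. Nectin1 (a cell adhesion molecule) rose by 1.24 ± 0.05, Gss (glutathione synthetase) by 1.14 ± 0.05, and Errfi1 (a feedback inhibitor of the EGF receptor) by 1.097 ± 0.052 (limma adjusted p at most 1.8e-13). Such genes were picked for their likeness over the same libraries, so their similar changes restate that choice.

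The other Fos genes moved less. Fosl2 (chromosome 5, 32136472 to 32157840), which encodes FRA-2, stood at 12.82, 12.84, 12.66 and 12.72 in the controls and at 12.99, 12.94, 12.90 and 12.93 after knockdown. The groups did not overlap, but the nearest libraries of the groups were closer than the spread within the controls. Its log2 fold change was 0.18 ± 0.04 (limma adjusted p = 0.00058), and the call was lost with quantile normalization (0.08, limma adjusted p = 0.0925) and cyclic loess (0.08, limma adjusted p = 0.0795).

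Fos (chromosome 12, 85473890 to 85477274) is the classical immediate early gene and encodes c-FOS. It was weak here, at 8.39, 8.21, 8.14 and 9.15 in the controls and 8.07, 8.10, 7.66 and 7.59 in the Atad2 libraries, from 294 to 667 and 156 to 294 reads. Control replicate 4 lay well above the other controls, and the lowest control was only just above the highest Atad2 library. Its log2 fold change was -0.62 ± 0.18 (limma adjusted p = 0.0059). Without control replicate 4 it was -0.39 (limma adjusted p = 0.0354), and the call was lost with quantile normalization (-0.35, limma adjusted p = 0.135), cyclic loess (-0.38, limma adjusted p = 0.0959) and without the variance trend (limma adjusted p = 0.064).

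Fosb (chromosome 7, 19302696 to 19310118), another inducible Fos gene, gave only 60 to 81 reads with control shRNA and 41 to 130 with Atad2 shRNA. Its levels were 6.02, 6.37, 5.92 and 5.70 against 6.38, 6.97, 6.26 and 5.60, with the lowest value of all in Atad2 replicate 4. The difference of 0.30 ± 0.27 did not pass (limma adjusted p = 0.34), and its 95% interval ran from -0.26 to 0.86. With quantile normalization it was 0.78 (limma adjusted p = 0.0218) and with cyclic loess 0.71 (limma adjusted p = 0.034), and without Atad2 replicate 2 it was 0.08 (limma adjusted p = 0.823).

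The upstream sequence of Fos is shown because its induction through such elements is the textbook case of an immediate early gene; capitals mark the letters TGACG, the first part of the cyclic AMP response element. It holds the 250 bases before the RefSeq start (chr12:85473640-85473889, GRCm38.p6, plus strand), read 5′ to 3′.
Fos: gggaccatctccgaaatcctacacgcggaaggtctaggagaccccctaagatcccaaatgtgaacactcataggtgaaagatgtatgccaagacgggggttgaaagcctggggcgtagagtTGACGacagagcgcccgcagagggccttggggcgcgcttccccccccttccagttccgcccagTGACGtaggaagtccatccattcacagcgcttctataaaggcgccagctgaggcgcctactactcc
Of 10 members, 8 had their upstream sequence searched, and Fosl1 and Egr1 were left out of the search. Leaving these genes out says nothing about their upstream letters. The 5 other motifs searched on both strands were TGANTCA (the TPA response element), TGACGTCA (the full cyclic AMP response element, which contains TGACG), the CArG box bound by serum response factor, GCGNGGGCG (bound by EGR proteins) and TGATGNAA (bound by C/EBP-ATF dimers). TGACG was in 17.8% of all 32851 upstream windows of this length, and the other motifs in 6.75%, 1.55%, 1.47%, 4.7% and 3.45% in that order. The Fos window held TGACG at 129 and 66 bases before the start and none of the other 5. Elements farther than 250 bases upstream were not searched. A match is a description of letters, not of binding.

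Counted per transcript length, Fosl1 dominated the Fos family in both groups. Normalized counts per kilobase used the longest RefSeq-matched GENCODE M21 transcript (Fosl1 1864, Fosl2 6537, Fos 2108 and Fosb 3782 bases). On this scale the Fos genes summed to 5977, 5699, 5482 and 5814 in the controls and 12399, 11762, 11455 and 10360 in the Atad2 libraries, 2.00 times as much on average, with no overlap. Fosl1 made up 78.2% ± 0.86 of the sum in the controls and 88.4% ± 0.62 after knockdown (SD, n = 4 each). The share of Fosl2 was 18.5% ± 0.85 and then 10.5% ± 0.70, that of Fos 3.04% ± 1.05 and then 0.96% ± 0.13, and that of Fosb under 1% in every library.

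**Figure D3:**
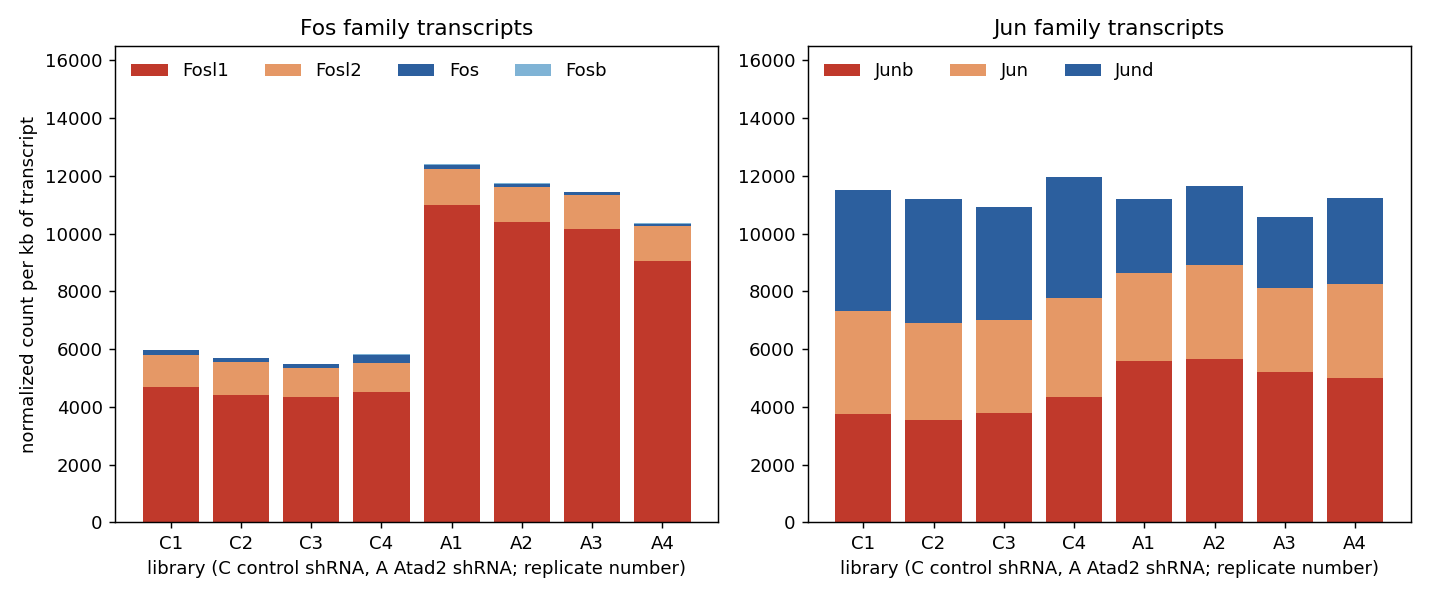
Stacked bars of normalized counts per kilobase of transcript for the Fos family (left) and the Jun family (right) in each library, C1 to C4 with control shRNA and A1 to A4 with Atad2 shRNA. The Fos family sum is between 5482 and 5977 in the controls and between 10360 and 12399 after knockdown, with Fosl1 at 78.2% and then 88.4% of it on average, while the Jun family sum overlaps between groups, its Junb portion being larger and its Jund portion smaller after knockdown.

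In the Jun family, Junb and Jund changed in opposite directions while their sum with Jun overlapped between groups. Junb (chromosome 8, 84976909 to 84978748) is an inducible Jun gene whose product is a weaker activator than c-JUN at many sites. It stood at 12.73, 12.65, 12.74 and 12.94 in the controls and 13.31, 13.32, 13.20 and 13.14 in the Atad2 libraries. All Atad2 values were above all control values, and control replicate 4 was the nearest of the controls. The log2 fold change was 0.48 ± 0.05, a 1.39-fold rise (limma adjusted p = 7e-08), with 0.37 to 0.54 over the 20 alternatives, all called.

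Jund (chromosome 8, 70697739 to 70700616) encodes the Jun protein that is typically present in resting cells and associated with slower growth. It stood at 12.765, 12.806, 12.674 and 12.773 in the controls and fell to 12.051, 12.163, 11.997 and 12.278. The highest Atad2 library, replicate 4, stayed below the lowest control. The log2 fold change of -0.63 ± 0.05 (limma adjusted p = 6.1e-10) corresponded to 1.55-fold lower levels, and all 20 alternatives gave a call, from -0.72 to -0.59. The tested genes with the pattern most like Jund were Hes6 (a bHLH factor), Plcb4 (a phospholipase C) and Mmp16 (a membrane-anchored matrix metalloproteinase), with root mean square differences of 0.031, 0.035 and 0.038. Their log2 fold changes were -0.65 ± 0.06, -0.65 ± 0.05 and -0.58 ± 0.07, and these too restate the choice by likeness.

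Jun (chromosome 4, 95049036 to 95052222), which encodes c-JUN, the strongest activator of the family, barely moved. Its values of 13.48, 13.39, 13.33 and 13.41 in the controls overlapped 13.25, 13.34, 13.19 and 13.35 after knockdown (exact permutation p = 0.0857). The small log2 fold change of -0.12 ± 0.04 was called (limma adjusted p = 0.0102), but not without control replicate 1 (-0.10, limma adjusted p = 0.0505), without Atad2 replicate 3 (-0.09, limma adjusted p = 0.0521) or without the variance trend (limma adjusted p = 0.07). The antisense gene Junos overlaps Jun and also fell, from 8.82 ± 0.12 to 8.37 ± 0.08 (-0.45 ± 0.10, limma adjusted p = 0.00066). Prdx2, which overlaps Junb on the other strand, was at 14.22 ± 0.08 and 14.18 ± 0.06 and did not pass (-0.03 ± 0.04, limma adjusted p = 0.44), although it was called lower with quantile normalization (-0.14, limma adjusted p = 0.0048) and cyclic loess (-0.15, limma adjusted p = 0.0015).

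Within a library, the comparison of Junb with Jund does not depend on the size factor. Junb minus Jund on the log2 scale was -0.04, -0.16, 0.06 and 0.17 in the controls and 1.26, 1.16, 1.20 and 0.86 after knockdown. The controls lay around 0, and each Atad2 library was far above them. The mean difference went from 0.01 ± 0.14 to 1.12 ± 0.18. Fosl1 minus Fos was likewise larger in every Atad2 library, with 4.56 ± 0.45 in the controls and 6.35 ± 0.19 after knockdown, the lowest control (3.89) being replicate 4. Each pair joins a member called higher with a member called lower, so the larger differences restate those calls.

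**Figure D4:**
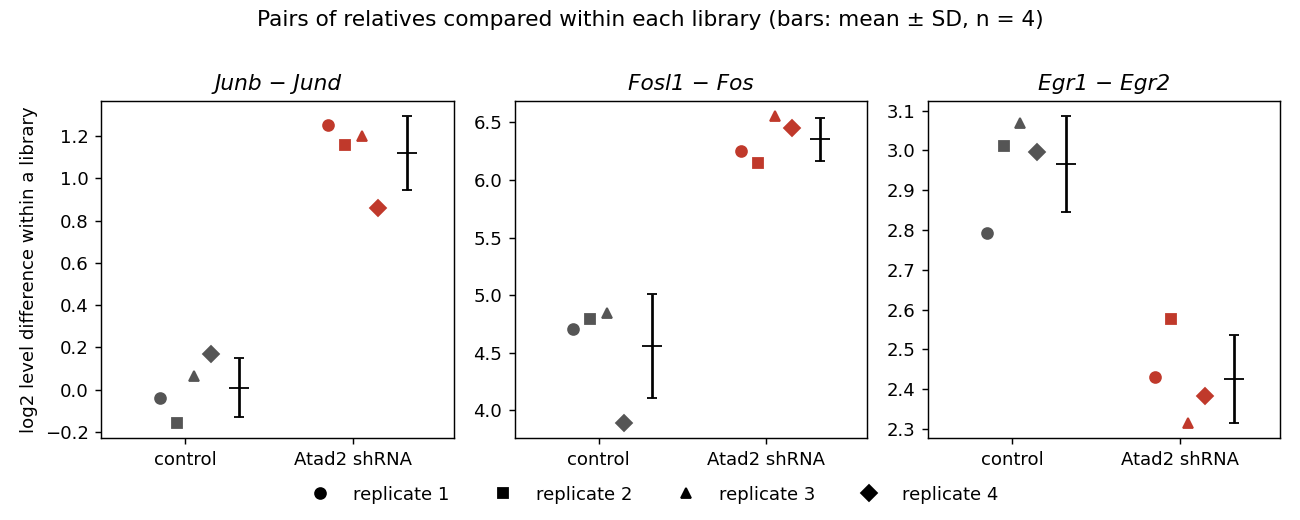
Difference in log2 level within each library (vertical axis) for Junb minus Jund, Fosl1 minus Fos and Egr1 minus Egr2, in control (grey) and Atad2 shRNA (red) libraries, with the mean ± SD as bars and symbols for the replicate number. The groups do not overlap in any of the 3 panels, and Junb minus Jund goes from 0.01 to 1.12. Each panel pairs a member called higher with a member called lower, and vertical axes differ.

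Per kilobase (Jun 3189, Junb 1809 and Jund 1668 bases) the Jun genes summed to 11396 ± 441 in the controls and 11164 ± 449 after knockdown, with overlapping values. Junb made up 33.8% ± 2.10 of the sum and then 48.05% ± 2.49, Jund 36.4% ± 1.36 and then 24.0% ± 1.71, and Jun 29.8% ± 1.06 and then 28.0% ± 0.79. At these lengths the Junb and Jund shares did not overlap between groups, and those of Jun did. RefSeq gives Jund a longer span of 2878 bases. With that length the Jund share was 24.9% ± 1.11 and then 15.5% ± 1.23, and the Junb share 39.9% ± 2.23 and then 53.4% ± 2.36. The Jun share was then 35.2% ± 1.38 and 31.1% ± 1.14, and no longer overlapped between groups.

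The upstream sequences of this opposed pair are set beside each other, 250 bases before the RefSeq start of Junb (chr8:84978749-84978998, minus strand) and of Jund (chr8:70697489-70697738, plus strand), GRCm38.p6, with TGACG in capitals.
Junb: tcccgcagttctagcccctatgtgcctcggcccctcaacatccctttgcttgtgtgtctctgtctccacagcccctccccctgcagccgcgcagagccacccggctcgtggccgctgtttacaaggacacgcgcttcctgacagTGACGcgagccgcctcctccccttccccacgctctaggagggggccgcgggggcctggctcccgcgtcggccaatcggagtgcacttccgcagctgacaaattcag
Jund: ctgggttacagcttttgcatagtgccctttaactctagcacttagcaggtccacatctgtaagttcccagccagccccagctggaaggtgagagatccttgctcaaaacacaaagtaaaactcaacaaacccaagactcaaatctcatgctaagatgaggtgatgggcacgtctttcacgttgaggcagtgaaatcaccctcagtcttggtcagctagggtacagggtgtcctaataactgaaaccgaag
The Junb window held TGACG at 106 bases before the start, and the Jund window held none of the 6 motifs. The Jun window (chr4:95052223-95052472) held no exact match of the 6 either. Near matches, such as its letters tgacatca, were not counted. The GENCODE M21 transcript of Jund (1668 bases) is shorter than its RefSeq span (2878 bases). Whether the 2 share a start was not tested, so this window may not adjoin the GENCODE start.

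The zinc finger pair also diverged, by smaller amounts. Egr1 (chromosome 18, 34861207 to 34864956) is a rapidly induced factor that binds GC-rich promoter elements. Its level was 12.91, 12.94, 12.73 and 13.23 in the controls and 12.69, 12.77, 12.58 and 12.66 after knockdown. Control replicate 4 was high, control replicate 3 lay below the highest Atad2 library, and so the groups overlapped. The log2 fold change was -0.28 ± 0.07 (limma adjusted p = 0.0014, exact permutation p = 0.0571). Without control replicate 4 it was -0.18 (limma adjusted p = 0.0039), and the call was lost with a robust prior (limma adjusted p = 0.0584) and without the variance trend (limma adjusted p = 0.0537).

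Egr2 (chromosome 10, 67534469 to 67542188), known as Krox-20 for its part in hindbrain patterning and myelination, gave 872 to 1423 reads per control library. It stood at 10.12, 9.93, 9.66 and 10.24 in the controls and at 10.26, 10.20, 10.26 and 10.28 in the Atad2 libraries. The Atad2 libraries were tightly grouped at the top of the control range. Its log2 fold change was 0.26 ± 0.09 (limma adjusted p = 0.0154, exact permutation p = 0.0571). Without control replicate 3 it was 0.15 (limma adjusted p = 0.084), and without the variance trend the call was also lost (limma adjusted p = 0.0944). Egr1 minus Egr2 within a library was 2.79, 3.01, 3.07 and 3.00 in the controls and 2.43, 2.58, 2.32 and 2.38 after knockdown, so all Atad2 libraries were lower.

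Of the 8 members searched, Egr2 alone had a CArG box, the element of serum response factor, within the 250 bases. Fosl1 and Egr1 were not searched. The box is shown in capitals together with TGACG and its reverse complement CGTCA. The window has the 250 bases before one of its RefSeq starts (chr10:67537619-67537868, GRCm38.p6, plus strand).
Egr2: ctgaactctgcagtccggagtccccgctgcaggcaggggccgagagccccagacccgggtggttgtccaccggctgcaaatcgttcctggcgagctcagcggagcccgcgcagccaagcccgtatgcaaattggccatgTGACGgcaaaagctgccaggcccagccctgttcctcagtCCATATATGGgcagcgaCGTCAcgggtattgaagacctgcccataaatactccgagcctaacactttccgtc
The CArG box lay at 72 bases and the TGACG matches at 111 and 55 bases before the start. Egr2 had other RefSeq starts. The window chr10:67535249-67535498 held none of the motifs searched, and chr10:67537316-67537565 held a CArG box (CCTTTTTTGG) but no TGACG. The Atf3 window held TGATGNAA at 110 and TGACG at 7 bases before the start. Windows of Fosl2 and Fosb each held GCGNGGGCG once, at 79 and 50 bases before the start, and that of Fosb also held TGACG at 60 bases.

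Atf3 had the largest fall and the weakest support in reads. The gene (chromosome 1, 191170296 to 191183333) encodes a stress-induced bZIP factor that represses transcription as a homodimer. It was at 5.16, 5.01, 5.80 and 5.47 in the controls, from 31 to 59 reads. After knockdown it was at 2.48, 3.64, 3.79 and 5.06, from 5 to 28 reads. Atad2 replicate 4 lay within the control range, and the other 3 were below it. The log2 fold change of -1.62 ± 0.46 (limma adjusted p = 0.0047) had a 95% interval from -2.57 to -0.66, and the exact permutation p was 0.0571. An offset of 8 gave -1.18, quantile normalization -1.07 (limma adjusted p = 0.0445) and cyclic loess -1.08 (limma adjusted p = 0.0471). Of the 1904 tested genes at mean levels between 3 and 5, 27.4% were lower and 5.51% higher, with a median of -0.56.

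Ordered by normalized count per kilobase, the controls ran Fosl1 (4489), Jund (4145), Junb (3852), Jun (3400), Egr1 (2631), Fosl2 (1063), Egr2 (345), Fos (175), Atf3 (20.7) and Fosb (16.9). The ranges of Jund and Junb, Junb and Jun, and Atf3 and Fosb overlapped, so those neighbours were not separated. After knockdown the order was Fosl1 (10160), Junb (5362), Jun (3122), Jund (2680), Egr1 (2154), Fosl2 (1202), Egr2 (410), Fos (111), Fosb (21.8) and Atf3 (7.72), with overlapping ranges for Jun and Jund and for Fosb and Atf3. With the longer RefSeq span Jund was at 2402 ± 93 and 1553 ± 136, which put it at rank 5 in both groups, below Egr1 and above Fosl2. Egr1 was at 2631 ± 391 in the controls, so its order with Jund there was not settled. Of the 3050 tested genes at mean levels between 12 and 14, where Fosl1, Fosl2, Jun, Junb, Jund and Egr1 lie, 53.5% were higher and 19.5% lower.

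Control replicate 4 was the highest control for Fos, Junb, Egr1 and Egr2. That is 4 of 10 members, beside 24.7% of tested genes, and 14 of 40 other immediate early genes. Leaving it out changed no call among the 10 members and moved Fos and Egr1 as given above.

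Genes around these factors were described in 8 lists of 194 entries in all, some genes being in more than one, with 179 entries tested. Their counts stand beside 30.8% higher and 29.6% lower of all tested genes, and beside 53.5% higher and 19.5% lower (median 0.10) of those at mean levels between 12 and 14. Among 16 tested relatives (other bZIP partners, EGR relatives and EGR corepressors), 6 rose, 6 fell and 4 did not pass. Egr3, a paralog of Egr1 and Egr2, rose from 8.68 ± 0.19 to 10.73 ± 0.13 (2.05 ± 0.09, limma adjusted p = 5.3e-14), and Nab2, a corepressor and target of EGR proteins, rose by 0.51 ± 0.03. Atf1, a CREB relative, rose by 0.57 ± 0.04. Jdp2, a bZIP repressor that pairs with Jun proteins, changed by -0.77 ± 0.04 and Atf5, a stress-induced bZIP factor, by -0.84 ± 0.04.

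Of 40 other immediate early genes, 20 were called higher (50%), 13 lower (32.5%) and 7 neither; their median log2 fold change was 0.10. Errfi1, Trib1 (a pseudokinase) and Sgk1 (a serum-induced kinase) rose by 1.097 ± 0.052, 0.98 ± 0.05 and 0.91 ± 0.04. Dusp1, a MAP kinase phosphatase induced with Fos, fell from 12.15 ± 0.08 to 10.90 ± 0.15 (-1.25 ± 0.06), and Ctgf, a secreted matricellular protein gene, changed by -2.70 ± 0.11.

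Of 10 serum response and ternary complex factor genes, 4 rose and 3 fell. Srf (serum response factor) rose by 0.40 ± 0.04, the ternary complex factor gene Elk3 by 0.31 ± 0.04 and the kinase gene Rps6ka4 by 0.34 ± 0.04, while Fhl2 changed by -0.61 ± 0.05 and Mapkapk2 by -0.26 ± 0.04. Of 28 genes of the MAP kinase routes, 15 rose (53.6%), 4 fell (14.3%) and 9 did not pass (median 0.13). These shares are near those of all genes at mean levels between 12 and 14, where 12 of the 28 lie, and 10 rose and 8 fell with quantile normalization and with cyclic loess. Map2k3, an activator of p38, rose by 1.02 ± 0.04, the p38 gene Mapk12 by 0.73 ± 0.06 and the JNK scaffold gene Mapk8ip1 by 0.73 ± 0.06. Map3k1, upstream of JNK, changed by -0.37 ± 0.06, and Map2k6 by -0.57 ± 0.09.

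Among 19 genes for turnover of AP-1 transcripts and proteins, 9 rose and 3 fell, and with quantile normalization and with cyclic loess 5 rose and 6 fell. The deubiquitinase gene Usp28 rose by 0.53 ± 0.05 and Tob2, of the deadenylation machinery, by 0.33 ± 0.04. Its paralog Tob1 changed by -0.20 ± 0.04. Rfwd2 (COP1, a ligase for c-JUN) also changed by -0.20 ± 0.04.

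Of 25 tested textbook AP-1 targets, 12 rose (48%), 6 fell (24%) and 7 did not pass. Of all tested genes 30.8% rose and 29.6% fell. At mean levels between 12 and 14, where 5 of the 25 lie, 53.5% rose and 19.5% fell. The median of the targets was 0.31, against -0.01 for all tested genes and 0.10 for those at mean levels between 12 and 14. Nqo1, a quinone reductase that is also an NRF2 target, rose by 1.16 ± 0.03, the matrix protein gene Spp1 (osteopontin) by 1.04 ± 0.04 and the protease inhibitor gene Timp1 by 0.88 ± 0.04. Plau (urokinase) changed by -1.11 ± 0.07 and the metallothionein gene Mt2 by -0.51 ± 0.04. The matrix metalloproteinase genes Mmp1a, Mmp3, Mmp9 and Mmp10 had at most 13 reads in any library and were not tested.

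Of 18 tested EGR targets, 7 rose and 6 fell (median 0.14). Besides Egr3 and Nab2, Tgfb1 rose by 0.93 ± 0.03, while Thbs1 (thrombospondin 1) changed by -1.49 ± 0.05 and F3 (tissue factor) by -1.26 ± 0.05. In the ATF4, CHOP and ATF3 stress list, 11 of 23 genes fell (47.8%, against 29.6% of all tested genes), 6 rose (26.1%, against 30.8%) and 6 did not pass (median -0.08). Ddit3 (CHOP), which like Atf3 is induced by ATF4, fell from 11.52 ± 0.05 to 10.39 ± 0.04 (-1.14 ± 0.05, limma adjusted p = 2.3e-14). Chac1, a target of this route, changed by -1.28 ± 0.09 and Atf5 by -0.84 ± 0.04. Cebpb rose by 0.85 ± 0.06 and the chaperone gene Hspa5 by 0.44 ± 0.04.

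**Figure D5:**
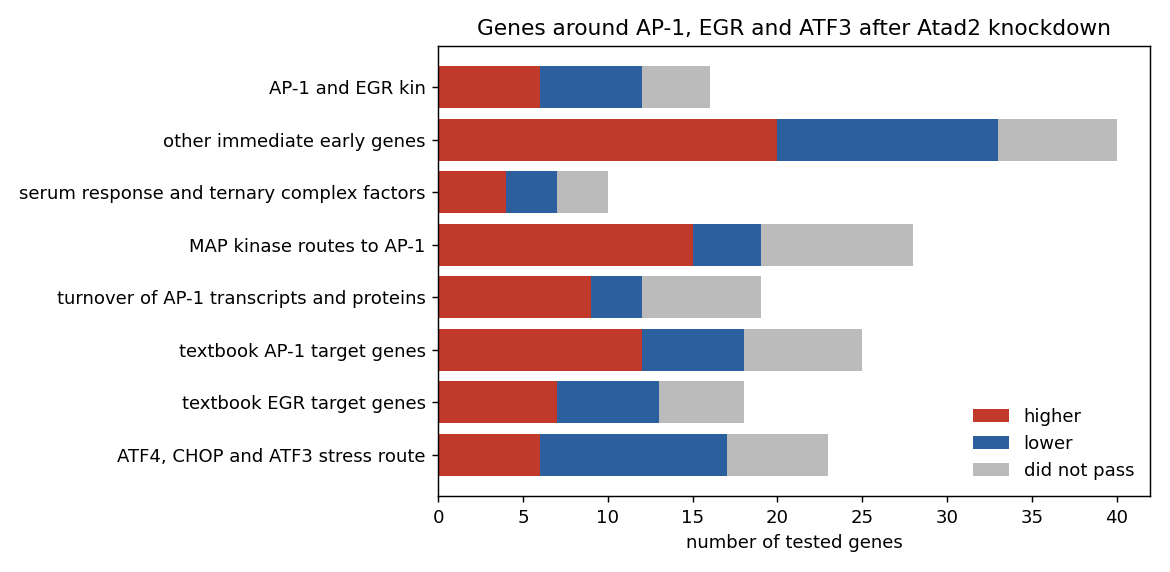
Number of tested genes (horizontal axis) called higher (red), called lower (blue) or not passing (grey) by limma in each of 8 lists of genes around these factors. The list of other immediate early genes holds 20 higher and 13 lower, and the ATF4, CHOP and ATF3 stress list is the one with more genes lower (11) than higher (6).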

How the data were processed

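The submitters' processing notes name HTSeq 0.13.5, DESeq2, SAMtools 1.1 and bcl2fastq 2.20, and the build mm10. The aligner, annotation, strand setting and order of steps were not given in the sources used here. The kit keeps strand, per the labels' protocols. The authors deposited log2 values with 3 decimals. Converted back as log2(x + 1), 100% of the low values were whole multiples, within 0.1 reads, of 1 step in each library, as size-factor scaling of counts gives. Reads recovered with that step gave depth and read ranges; high counts are approximate.

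Genes with a mean above 3 were compared by limma (version 3.58.1, R 4.3.3; lmFit, eBayes with trend, no covariates, two-sided, Benjamini-Hochberg adjusted p under 0.05 over 14703 genes), on the whole table. Single values used exact two-sided permutation tests. The procedure was run on simulated counts with a single dispersion for all genes. It recovered 66% of log2 changes of 0.25, 94% of 0.5 and 100% of 1 and of 2 (50 genes each). There 189 of 15074 genes were called, and 4.76% of these were unchanged genes. Weakly expressed genes were not changed in the simulation, so levels like that of Atf3, and a response of the breadth seen here, were not covered. Tables were made in Python 3.11.15 and pandas 2.3.3 and plots in matplotlib 3.10.9. RefSeq coordinates are on GRCm38.p6, the assembly of mm10.

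The members and lists were chosen with earlier results of these data known. All members are named; a list contributes its called genes of smallest adjusted p and a mean of at least 5, up to 3 in its majority direction and 2 in the minority. The 3 tested genes nearest to the members with the largest rise and fall at that mean level are also named. A gene that this rule names is not reported here. As alternatives, the filter was dropped or set at 5, the offset was 8, values were median-centred or quantile-normalized, eBayes ran without trend or with a robust prior, libraries were weighted, the replicate number was a block, each library was left out, or the adjusted p had to be under 0.01. Cyclic loess, limma-voom on recovered reads, a longer Jund length and the motif search were added after seeing the data.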

Additional observations from a re-analysis of the deposited data

How the results depend on the processing

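No member changed direction under any of the 20 alternatives (19 for Atf3, which a mean above 5 leaves out). Fosl1, Junb, Jund and Atf3 were called under each of them that tested them. Over the libraries left out in turn, 3 to 4 members were higher and 4 to 5 lower. Without the variance trend, 2 members were lower (Jund and Atf3) in place of 5; the cause was not tested. With quantile normalization and with cyclic loess, 8 genes of the MAP kinase routes were lower in place of 4, and 5 turnover genes were higher and 6 lower in place of 9 and 3; the cause was not tested. At an adjusted p under 0.01, the calls of Jun and Egr2 were lost by construction. The replicate block gave the same 4 higher and 5 lower members; same-numbered libraries did not deviate together (correlations of deviations from -0.02 to 0.03). Depth limits Atf3 and Fosb, at 5 to 130 reads per library. No Dixon test on the 20 groups of 4 member values passed, where chance gives about 1 in 20.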
